A study of Mus musculus with 19 samples.

Results

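Cell division was followed through 38 genes in RNA of whole mouse ovaries, measured on 19 Affymetrix Mouse Genome 430 2.0 arrays. The genes were listed by name: 9 genes of S phase, 21 mitotic genes, 4 G1 cyclins, 2 inhibitors of cyclin-dependent kinases and 2 cell cycle transcription factors. Each gene was read from the probe set annotated to it alone that had the highest mean log2 signal over all arrays. Of the 38 genes, 37 had such a probe set, all 37 passed the filter on low signals, and they were tested among 12379 genes. The mitotic cyclin Ccnb1 had no probe set annotated to it alone and gives no value here.

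The mice were 2 months old, and the groups were 3 arrays from ovaries lacking both Dhh and Ihh (DKO), 4 arrays labelled Dhh KO, 4 arrays labelled Ihh KO and 8 control arrays from double heterozygotes (Ihh_Dhh_dhet). The controls therefore also carried 1 lost copy of each gene. The labels call the deletion ovary-specific and name no Cre driver, and they do not say whether arrays of a group came from separate animals, so p-values measure only the spread between these arrays. Desert hedgehog (Dhh) and Indian hedgehog (Ihh) are ligands made by granulosa cells of the follicle that signal to the surrounding stromal and theca cells, and the design asks what each ligand and both together contribute to gene expression in the adult ovary.

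Granulosa cells divide while a follicle grows, and they leave the cell cycle when ovulation turns them into luteal cells. D-type and E-type cyclins carry a cell through G1, and the kinases they activate release E2F factors, which switch on genes for DNA replication such as the Mcm helicase subunits. Mitotic genes come on later, when the MuvB complex with B-Myb and then Foxm1 acts at promoters with a cell cycle homology region (CHR) and CCAAT boxes. The inhibitors Cdkn1a (p21) and Cdkn1b (p27) hold cells in G1.

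By the signal of the spiked BioC control, 2 sets of arrays were told apart: a first set (the DKO arrays with controls 1 to 4; BioC 3'/5' ratio 0.987 to 1.06) and a second set (both single knockouts with controls 5 to 8; 0.685 to 0.781). Mutants are compared with the controls of their own set. Median signals per array ran between 101 and 159.8, and the number of arrays limits the precision. Deviations of controls 1, 2, 3 and 4 from their set's mean matched those of controls 5, 6, 7 and 8 in that order (r across genes 0.538 to 0.771), although the labels do not say that these arrays share a source. The array labelled Ihh KO 4 had a Dhh signal of 2.96, which goes against its label, against 527 to 709 on Ihh KO 1 to 3, so results of the Ihh KO group are given with and without it. Dhh signals were 3.85 to 14.2 in DKO, against 606 to 1371 in controls 1 to 4, and 5.14 to 25.4 on Dhh KO arrays, against 621 to 1085 on controls 5 to 8. Ihh signals were 36.3 to 52.7 in DKO, against 139 to 425 in controls 1 to 4. In the second set, Ihh was 160.0 to 238 in controls 5 to 8 and 107.7 to 168 in Dhh KO. Ihh KO 1 to 3 had 12.5 to 43.5, while the signal of Ihh KO 4 was 108. For Ihh, Ihh KO 4 thus lay at the low end of the Dhh KO range and above Ihh KO 1 to 3. The genotype of Ihh KO 4 was not tested. Markers of granulosa cells (13 of 13) and of oocytes (19 of 19) passed the filter.

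The promoters are shown first, because the lists of S phase and mitotic genes follow 2 programmes that differ in their promoter motifs. RefSeq windows of 300 bases (250 before the start of the gene and 50 from it; build GRCm38.p6) were matched to 30 of the 38 genes. Each gene is given by 1 window, the first listed where there were several. Windows were searched on both strands for the CHR, spelled TTTGAA or as its variant TTCGAA, for the CCAAT box, and for 4 E2F cores, namely TTCCCGC, its relative TTCGCGC, the core TTGCCGC and lastly TTGGCGC, and overlapping matches were each counted. The CHR letters were in 13 of 17 mitotic windows, 2 of 8 S phase windows and 19.4% of the windows of all 27025 genes. The E2F cores were in 3 of 17 mitotic windows, 6 of 8 S phase windows and 9.69% of the windows of all genes. CCAAT boxes were common to both programmes (15 of 17 mitotic, 8 of 8 S phase, 37.9% over all genes). CHR and CCAAT box together were in 13 of 17 mitotic and 2 of 8 S phase windows, and in 7.70% over all genes. Neither the window of Ccnd3, the first of 2 listed, nor that of Ccne1 held any of these letters. The second Ccnd3 window is not given. A match is a description of the sequence and not a bound site. Below are 2 S phase windows with E2F cores (Mcm3, chr1:20820263-20820562 (minus strand), and Mcm6, chr1:128359656-128359955 (minus strand)) and 4 mitotic windows with the CHR (Top2a, chr11:99024140-99024439 (minus strand), Ccnb2, chr9:70421505-70421804 (minus strand), Plk1, chr7:122159185-122159484 (plus strand), and Bub1, chr2:127831810-127832109 (minus strand)), 5' to 3' in the direction of transcription, with matches in capitals.
Mcm3: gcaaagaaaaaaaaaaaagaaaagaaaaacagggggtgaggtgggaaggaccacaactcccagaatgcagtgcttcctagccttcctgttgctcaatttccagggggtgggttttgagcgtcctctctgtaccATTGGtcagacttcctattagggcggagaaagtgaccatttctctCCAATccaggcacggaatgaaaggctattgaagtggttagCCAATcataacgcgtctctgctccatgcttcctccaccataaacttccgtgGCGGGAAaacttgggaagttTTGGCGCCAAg
Mcm6: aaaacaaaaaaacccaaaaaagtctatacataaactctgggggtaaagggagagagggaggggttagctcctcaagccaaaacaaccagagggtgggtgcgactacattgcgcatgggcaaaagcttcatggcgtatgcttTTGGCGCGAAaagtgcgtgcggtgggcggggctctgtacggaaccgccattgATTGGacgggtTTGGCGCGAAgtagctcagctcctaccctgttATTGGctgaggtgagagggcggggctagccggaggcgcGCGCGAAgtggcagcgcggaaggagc
Top2a: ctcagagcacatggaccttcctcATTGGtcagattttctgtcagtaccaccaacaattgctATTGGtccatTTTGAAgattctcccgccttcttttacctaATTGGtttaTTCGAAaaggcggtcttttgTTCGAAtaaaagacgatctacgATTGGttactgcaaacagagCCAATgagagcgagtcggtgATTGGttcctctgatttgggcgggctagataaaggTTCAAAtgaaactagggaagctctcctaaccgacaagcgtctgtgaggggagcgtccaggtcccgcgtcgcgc
Ccnb2: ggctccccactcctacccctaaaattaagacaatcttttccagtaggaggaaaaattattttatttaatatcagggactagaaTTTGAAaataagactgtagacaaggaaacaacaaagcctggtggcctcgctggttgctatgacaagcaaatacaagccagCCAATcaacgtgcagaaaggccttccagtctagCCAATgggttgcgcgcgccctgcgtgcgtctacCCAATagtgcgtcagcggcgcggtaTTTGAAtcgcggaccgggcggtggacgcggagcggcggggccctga
Plk1: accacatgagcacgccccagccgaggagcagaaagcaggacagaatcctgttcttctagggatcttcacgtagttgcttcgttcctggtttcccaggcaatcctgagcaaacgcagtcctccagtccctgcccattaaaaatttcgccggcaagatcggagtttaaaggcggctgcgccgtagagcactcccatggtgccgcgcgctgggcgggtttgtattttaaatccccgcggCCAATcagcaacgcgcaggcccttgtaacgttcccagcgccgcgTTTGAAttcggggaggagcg
Bub1: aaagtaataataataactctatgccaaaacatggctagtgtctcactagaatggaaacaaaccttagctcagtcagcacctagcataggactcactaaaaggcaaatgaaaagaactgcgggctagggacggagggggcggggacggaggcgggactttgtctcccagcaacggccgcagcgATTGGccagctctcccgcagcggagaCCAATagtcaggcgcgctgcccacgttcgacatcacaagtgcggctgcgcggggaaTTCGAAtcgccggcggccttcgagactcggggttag

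**Figure D1:**
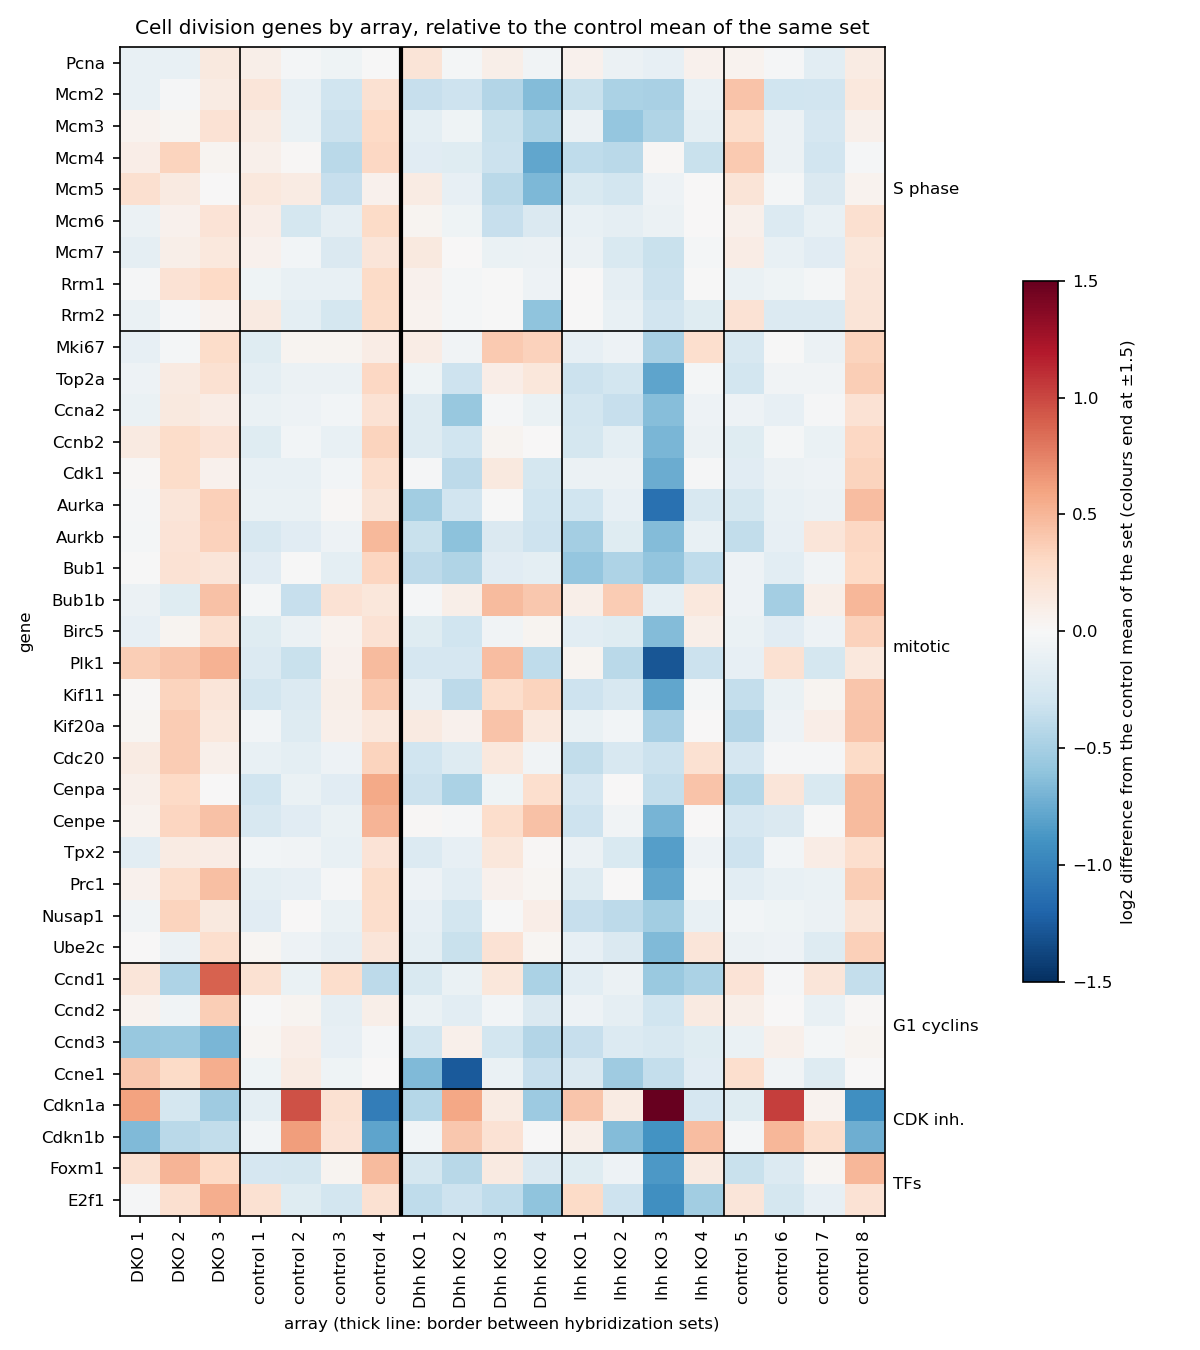
Log2 difference of each of the 37 genes (rows, grouped by role) from the control mean of the same hybridization set on each of the 19 arrays (columns); red is higher and blue lower, with colours ending at 1.5 in either direction. The mitotic rows are red on controls 4 and 8, blue on Ihh KO 3, and mostly pale red or near white on the DKO arrays, with some pale blue on DKO 1 and 2.

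In DKO ovaries Ccnd3 was lower than in controls, and no other of the 37 genes passed the test. Ccnd3 encodes cyclin D3, a G1 cyclin that partners Cdk4 and Cdk6. Its signal was 478, 482 and 441 on the DKO arrays, against 729, 766, 656 and 703 on controls 1 to 4. Every DKO array lay below every control of the set. The log2 change was -0.60 ± 0.11 (adjusted p = 0.00623) in limma over all genes, where ± is the SE here and below. Calls at an adjusted p under 0.05 made up 3.02% of all genes in either direction and 1.45% as lower, so 1 called gene of 37 is close to the background. RNA of whole ovary cannot tell fewer cells of a type from less RNA per cell. Of 35 alternative settings the call held in 31. Among the 35 are fits without 1 array of the second set, which leave the change itself unaltered and test the call little. The call was lost with median centring (-0.63, adjusted p = 0.0886 in limma) and in a fit of the first set alone (adjusted p = 0.0523). It was also lost in that fit with the replicate number as a block (adjusted p = 0.0656) and with the mean of all its probe sets (-0.31, adjusted p = 0.516). A further Ccnd3 probe set over the filter, with a mean signal of 78.4, had a log2 difference of 0.05, and one under the filter, with a mean signal of 32.0, of -0.37.

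No other G1 cyclin passed the test in DKO. Ccne1, which encodes cyclin E1 and drives entry into S phase with Cdk2, had signals of 410.1, 377 and 451 in DKO, against 294, 335, 295 and 309 in controls 1 to 4. These groups did not overlap, as for 7.08% of all genes in this direction and 6.07% in the lower direction, but the change of 0.41 ± 0.20 (adjusted p = 0.334) did not pass limma's test. Its second probe set had a log2 difference of 0.07. Ccnd1 (577, 367 and 946 in DKO, against 598, 474, 613 and 386 in controls) spread more widely in DKO than in the controls of its set. Ccnd2, the D cyclin that granulosa cells need to divide in response to follicle-stimulating hormone, had 6344, 5861 and 7866 in DKO, against 6086, 6283, 5569 and 6503 in controls. Its groups overlapped, with a change of 0.12 ± 0.10 (adjusted p = 0.607).

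S phase genes were close to control levels in DKO, and the small positive changes of mitotic genes did not pass the test. The 9 S phase genes had a median log2 change of 0.06, with 6 positive and 3 negative, and none passed the test. Pcna, the sliding clamp of DNA polymerase, had 4826, 4856 and 5811 in DKO, against 5582, 5145, 5025 and 5205 in controls 1 to 4. The smallest p-values among S phase genes were those of Rrm1, a subunit of ribonucleotide reductase (0.17 ± 0.11, adjusted p = 0.503), and of the helicase subunit Mcm4 (0.16 ± 0.18, adjusted p = 0.728). Changes of all 20 mitotic genes were positive, with a median of 0.14 and a range of 0.03 to 0.44, and none passed limma's test. Over all genes 54.1% of changes were positive, with a median of 0.02.

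Single arrays set much of that mitotic median. Per array, the median deviation of the 20 mitotic genes from the control mean was 0.00, 0.24 and 0.22 on DKO 1 to 3, against -0.16, -0.10, -0.06 and 0.27 on controls 1 to 4. Control 4 lay above all DKO arrays, and the other 3 controls lay below them. The S phase median lay between -0.01 and 0.15 when single arrays were left out. Without control 4 the mitotic median was 0.24, without DKO 1 it was 0.21, and without control 1 it was 0.08. The largest of the mitotic changes was that of Plk1, the kinase that drives entry into and exit from mitosis, with 584, 607 and 652 in DKO, against 392, 359, 471 and 629.7 in controls 1 to 4. The groups overlapped through control 4, and the change was 0.44 ± 0.26 (adjusted p = 0.451). Prc1, which bundles microtubules of the central spindle, had a log2 difference of 0.26 ± 0.17 (adjusted p = 0.495) and Ccnb2, a B-type cyclin of mitosis, of 0.21 ± 0.15 (adjusted p = 0.552). Mki67, the source of the Ki-67 antigen of cycling cells, had 4509.9, 4799 and 5958 in DKO, against 4317, 5042, 5054 and 5301 in controls, and Top2a, the topoisomerase that untangles chromosomes, had 1882, 2176 and 2321, against 1795, 1870.2, 1861 and 2465 in controls. DKO 3 was the highest of these 7 arrays for Mki67 and control 4 for Top2a, and the groups overlapped in both. The transcription factor Foxm1 had a log2 difference of 0.34 ± 0.24 (adjusted p = 0.525) and Cdkn1b of -0.48 ± 0.33 (adjusted p = 0.514), and neither passed the test. Equally numbered DKO and Dhh KO samples deviated together. With their number and the matched controls as a block, 1253 of the 12379 genes tested were called in DKO. Among them were 4 of the 37: Ccnd3, Cdkn1b (-0.67), Prc1 (0.34) and Cenpe, a kinetochore kinesin (0.41). This share of the 37 was close to the share of all genes called in that fit.

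**Figure D2:**
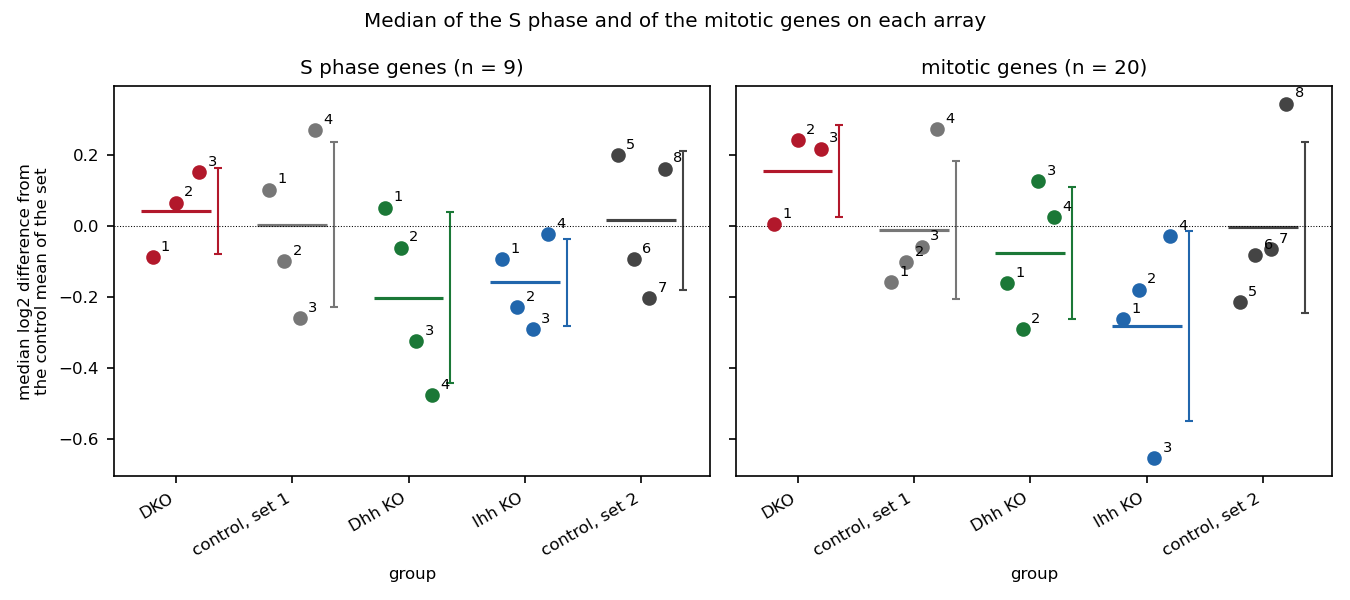
Median log2 difference from the control mean of the set over the 9 S phase genes (left) and the 20 mitotic genes (right) on each array; points are arrays with their numbers, horizontal lines are group means and bars to their right are ± 1 SD (n = 3 or 4). Controls 4 and 8 lie highest for mitotic genes and Ihh KO 3 lowest, at -0.65.

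Several lists of cell type markers differed in DKO. Oocyte markers were higher in 17 of 19 genes with none called (summed signal 23949 to 37687 in DKO, against 16959 to 30112 in controls 1 to 4), and granulosa markers in 9 of 13 with none called (61096 to 83801 in DKO, against 63567 to 77462). Theca markers were lower in 7 of 7 genes, with 4 called (27339 to 37671, against 51394 to 66727 in controls), and smooth muscle markers in 8 of 8, with 4 called (5238 to 12204, against 14240.0 to 19064). Of 11 stroma markers 10 were lower, 4 of them called, and 1 was called higher. Surface epithelium markers were higher in 9 of 11, with 3 called, and oviduct markers in 5 of 5 tested, with 3 called. Summed over 8 with a probe set, some under the filter, oviduct signal was 1514 to 11971 in DKO, against 617 to 1305 in controls. Endothelial markers were lower in 8 of 10 (median -0.41), with 2 called. Macrophage markers were higher in 9 of 10 (median 0.58), with none called, and corpus luteum markers lower in 3 of 5, with 1 called. The part of the marker lists in the changes of the cell division genes was not tested.

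Among 120 further cell cycle genes, chosen by name for G1, S phase and mitosis, 114 were tested and 1 passed the test in DKO, a share below the 3.02% of all genes. Rb1, the retinoblastoma protein that restrains E2F factors, was higher, with 723, 965 and 1035 in DKO, against 532, 647, 559 and 647 in controls 1 to 4. The groups did not overlap, and the change was 0.59 ± 0.14 (adjusted p = 0.0326) in limma. Of 35 alternative settings the call of Rb1 held in 27, where fits without 1 array of the second set again leave the change itself unaltered. The call was lost without control 1, control 3, DKO 2 or DKO 3, at log2 changes of 0.49 to 0.56. It was also lost in limma with median centring (adjusted p = 0.182), in the fit of the first set alone (adjusted p = 0.121), in that fit with the replicate number as a block (adjusted p = 0.0754) and with the mean of its probe sets (0.44, adjusted p = 0.273). Of the further mitotic genes 57 of 63 had positive changes (median 0.15), and of the further S phase genes 28 of 34 (median 0.11).

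**Figure D3:**
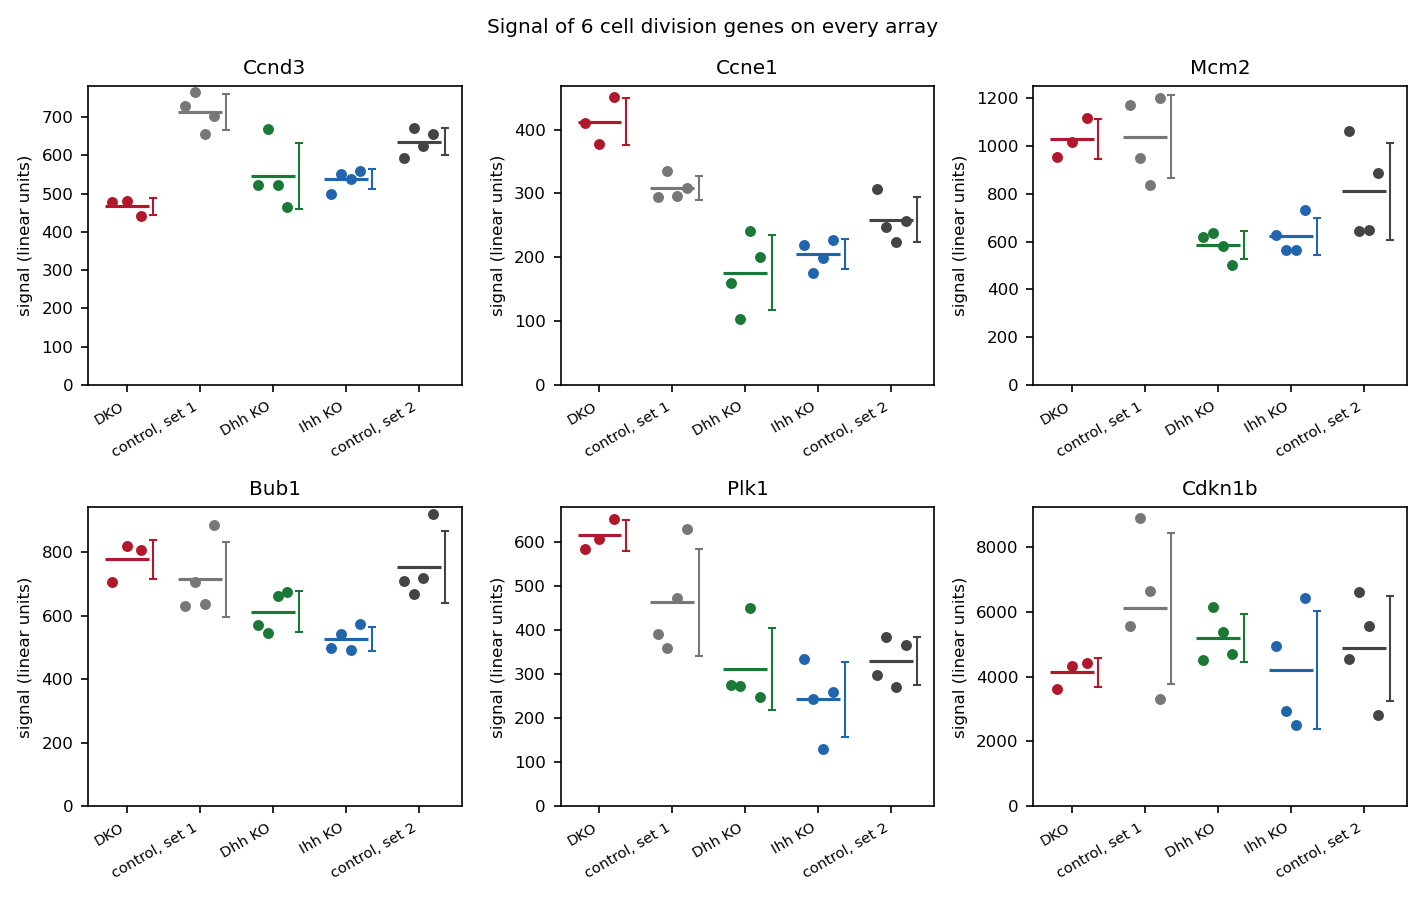
Signal (linear units, axis from 0) of 6 genes on every array; points are arrays, horizontal lines are group means and bars to their right are ± 1 SD (n = 3 or 4). Ccnd3 is lower on all DKO arrays than on controls 1 to 4, and Bub1 is lower on all Ihh KO arrays than on controls 5 to 8.

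In Dhh KO ovaries no gene passed the test, and most cell division genes had signals slightly below those of controls 5 to 8. In limma 0 of 12379 genes had an adjusted p under 0.05 (0.0%), and 1252 genes (10.1%) had an unadjusted p under 0.05. The smallest adjusted p of all genes was 0.119. Dhh itself was not called, although its signals were 5.14 to 25.4 against 621 to 1085, so a lack of calls does not show a lack of change. The model uses 1 spread per gene over all groups, so the array labelled Ihh KO 4 enters this test too. Of the 37 cell division genes 30 had negative changes, 5 of them with an unadjusted p under 0.05 in the lower direction, against 6.05% of all genes in that direction. The S phase genes had a median change of -0.15 (8 of 9 negative) and the mitotic genes of -0.08 (15 of 20 negative), where 56.3% of all genes were negative with a median of -0.03. Without control 8 the mitotic median was 0.01, with 9 of 20 negative, and the S phase median -0.08. With single arrays left out in turn, 3 to 7 of the 37 reached an unadjusted p under 0.05.

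Mcm2 and Mcm4, subunits of the replicative helicase, had the smallest p-values among S phase genes. Mcm2 had 619.6, 637, 581 and 502 on Dhh KO 1 to 4, against 1064, 643, 648 and 886 on controls 5 to 8. All Dhh KO arrays lay below all controls of the set, by a narrow gap, and the change was -0.44 ± 0.16 (adjusted p = 0.384). In this comparison 3.27% of all genes were lower without overlap, and of the 37 genes these were Mcm2 and E2f1. Mcm4 had 3116, 3089, 2809 and 2040.3 in Dhh KO, against 4618, 3296, 2879.5 and 3488 in controls, with a change of -0.37 ± 0.17 (adjusted p = 0.477). Dhh KO 4 was the lowest of the 8 arrays and the other Dhh KO arrays lay within or just below the range of the controls. Pcna had 5397, 4644, 5035 and 4562 in Dhh KO, against 4899, 4661, 4254 and 5169 in controls, and Rrm1 had a log2 difference of -0.01 ± 0.10, so neither stood apart.

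Median deviations of the S phase genes were 0.05, -0.06, -0.32 and -0.48 on Dhh KO 1 to 4, against 0.20, -0.09, -0.20 and 0.16 on controls 5 to 8. Those of the mitotic genes were -0.16, -0.29, 0.12 and 0.02, against -0.21, -0.08, -0.07 and 0.34 on the controls. Dhh KO 3 and 4 were lowest for S phase genes and highest of their group for mitotic genes. The ratio of 3' to 5' Gapdh signal, a measure of RNA integrity, was 2.08 to 2.79 on the Dhh KO arrays, against 1.89 to 2.01 on controls 5 to 8, and its part in these values was not tested.

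Of the remaining Dhh KO values, the lowest p-value was that of Ccne1, at 159.7, 103, 240.4 and 201 in Dhh KO, against 307, 247, 224 and 258 in controls 5 to 8. Dhh KO 3 overlapped the controls, and the change was -0.59 ± 0.19 (adjusted p = 0.337) in limma. E2f1, the transcription factor of S phase genes, had 323, 339, 325 and 277, against 480.4, 351, 387 and 494 in controls, and its groups did not overlap (-0.42 ± 0.21, adjusted p = 0.510). Ccnd3 had a log2 difference of -0.23 ± 0.10 (adjusted p = 0.471), with Dhh KO 2 within the controls. Among mitotic genes the smallest p-values were those of Bub1, a kinase of the spindle checkpoint (-0.29 ± 0.12, adjusted p = 0.449), Aurkb, the kinase of the chromosomal passenger complex (-0.37 ± 0.18, adjusted p = 0.497), and Ccna2, the cyclin of S phase and G2 (-0.22 ± 0.13, adjusted p = 0.585). Mki67 lay at 4801, 4276, 5817 and 5636 in Dhh KO, against 3745, 4424, 4171 and 5592 in controls, and Top2a at 1951, 1645, 2196 and 2298, against 1687, 1976, 1973 and 2640.0. The groups overlapped in both genes. Of the marker lists, macrophage markers were lower in 10 of 10 genes (median -0.22; Dhh KO sums of signal spanned 7007 to 8216, and control sums of the second set spanned 6500.5 to 11842), oviduct markers in 4 of 5 (median -0.59), smooth muscle markers in 6 of 8 (-0.23) and surface epithelium markers in 8 of 11 (-0.13). The oviduct markers Ovgp1, Foxj1, Dynlrb2, Pax8 and Sprr2f lay under the filter signal of 69.4 on all Dhh KO arrays. Endothelial markers were higher in 9 of 10 (median 0.20), corpus luteum markers in 3 of 5 (0.97) and granulosa markers in 8 of 13 (0.03). Per array, the corpus luteum median deviation was 0.58, 1.24, -0.02 and 1.22 on Dhh KO 1 to 4, against 0.01, 1.10, 0.56 and -2.61 on controls 5 to 8, so its size leans on control 8. No marker was called, and their part in the values was not tested. Ccnd2 had a log2 difference of -0.13 ± 0.09 and Cdkn1b of 0.14 ± 0.30.

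**Figure D4:**
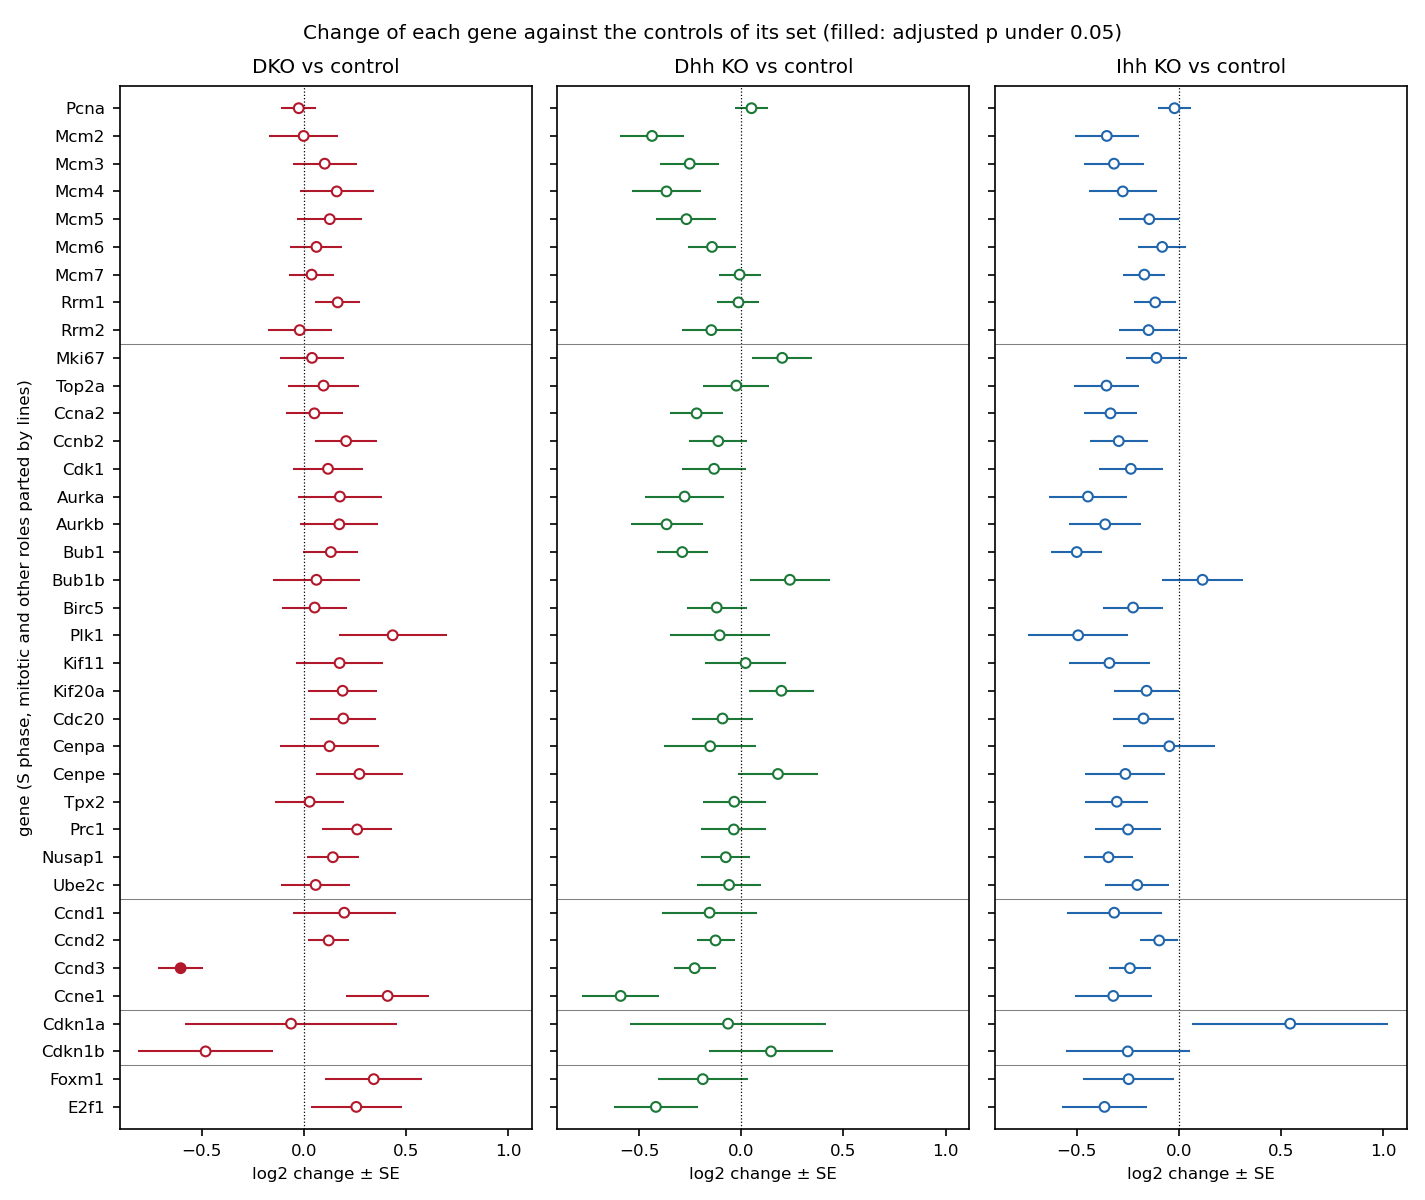
Log2 change ± SE of each of the 37 genes (rows) in DKO, Dhh KO and Ihh KO, each against the controls of its own set; a filled point marks an adjusted p under 0.05. The filled point is Ccnd3 in DKO, and most points of the Ihh KO panel lie below 0.

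In Ihh KO ovaries most cell division genes were lower than in controls 5 to 8, and none passed the test. Changes were negative for 35 of the 37 genes, for 19 of 20 mitotic genes (median -0.28) and for 9 of 9 S phase genes (median -0.15), where 54.0% of all genes were negative with a median of -0.02. Median centring moved the median of all genes to 0.13. With it, 17 of 20 mitotic genes (median -0.13) and 4 of 9 S phase genes (median 0.00) were negative. Relative to the median of all genes, the S phase median was -0.13 and the mitotic median -0.26. Centring moves all genes of an array alike, so it cannot alter these relative values and gives no check of them. In limma 2 of 12379 genes (0.0162%) were called lower, neither among the 37. An unadjusted p under 0.05 was reached by 8 of the 37, all lower, against 8.77% of all genes in that direction. With single arrays left out in turn, 2 to 15 of the 37 reached it.

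Mitotic genes carried the smallest p-values. Bub1 had 499, 542, 493 and 574 on Ihh KO 1 to 4, against 708, 667, 719 and 918 on controls 5 to 8. Every Ihh KO array lay below every control, with a change of -0.50 ± 0.12 (adjusted p = 0.143), or -0.54 ± 0.14 (adjusted p = 0.0843) without the array labelled Ihh KO 4. Nusap1, a microtubule-binding protein of the spindle, had 1043, 1006, 919 and 1222, against 1290.0, 1269, 1246 and 1512 in controls. It did not overlap either (-0.35 ± 0.12, adjusted p = 0.221, or -0.42 ± 0.12, adjusted p = 0.119 without that array). Ccna2 had 2307, 2197, 1799 and 2642, against 2659, 2568, 2756 and 3252, and overlapped through the array labelled Ihh KO 4 (-0.34 ± 0.13, adjusted p = 0.262, or -0.42 ± 0.13, adjusted p = 0.144 without it). Mki67 had 4059.6, 4219.8, 3156 and 5263, against 3745, 4424, 4171 and 5592, and Top2a 1630.2, 1682, 1177 and 2000.2, against 1687, 1976, 1973 and 2640.0. In both, the highest Ihh KO array was the one labelled Ihh KO 4, and Ihh KO 3 was the lowest of the 8 arrays.

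The size of the mitotic median depended on Ihh KO 3. The median deviation of mitotic genes was -0.26, -0.18, -0.65 and -0.03 on Ihh KO 1 to 4, against -0.21, -0.08, -0.07 and 0.34 on controls 5 to 8. Without Ihh KO 3 the median change was -0.13, with 17 of 20 negative, without control 8 it was -0.16, also with 17 of 20, and without the array labelled Ihh KO 4 it was -0.36, with 19 of 20. Ihh KO 3 had the lowest Plk1 signal of all arrays, 130.0 against 335, 244 and 259.8 on the other Ihh KO arrays and 298, 384, 270.4 and 366 on controls 5 to 8. It also had the lowest median signal of the second set (105.7), a Gapdh 3'/5' ratio of 2.37 against 1.90 to 2.11 on the other Ihh KO arrays, and the highest Cdkn1a signal of all arrays. The part of these values in the mitotic median was not tested. Cdkn1a was 492, 399, 1364 and 307 in Ihh KO, against 323, 759.6, 379 and 190.5 in controls, and overlapped (0.54 ± 0.48, adjusted p = 0.636).

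No S phase gene or regulator passed the test in Ihh KO. Mcm2 had 626, 566, 564 and 731, against 1064, 643, 648 and 886 in controls 5 to 8, and its groups overlapped (-0.35 ± 0.16, adjusted p = 0.331). Mcm3 had a log2 difference of -0.32 ± 0.14 (adjusted p = 0.338) and Pcna of -0.02 ± 0.08 (adjusted p = 0.927). Ccnd3 had 500.2, 552, 539 and 559.6, against 593, 673, 625 and 656, and did not overlap (-0.24 ± 0.10, adjusted p = 0.312). It was 1 of 3 genes of the 37 that were lower without overlap, with Bub1 and Nusap1, against 3.99% of all genes. Ccne1 had a log2 difference of -0.32 ± 0.19 (adjusted p = 0.451), E2f1 of -0.36 ± 0.21 (adjusted p = 0.443) and Ccnd2 of -0.10 ± 0.09. E2f1 was lowest on Ihh KO 3, at 220.3.

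Leaving out the array labelled Ihh KO 4 raised the number of genes called in Ihh KO to 48 (0.388%), with 0 of the 37 among them. An unadjusted p under 0.05 was then reached by 15 of the 37, all lower (9.65% of all genes in that direction), 12 of them mitotic. Among fits without single arrays, 15 was the highest such number and 2 the lowest. Lower without overlap were 7 of the 37, against 7.63% of all genes: Bub1, Nusap1, Ccna2, Top2a, Mcm2, Ccnd3 and Ccne1. Of the further cell cycle genes 60 of 63 mitotic (median -0.27) and 30 of 34 S phase genes (median -0.20) had negative changes with all arrays, 31 of the 114 with an unadjusted p under 0.05 in that direction, against 8.77% of all genes with all arrays, and none called. Granulosa markers were lower in 9 of 13 genes and oocyte markers in 9 of 19, with medians of -0.07 and 0.00, and corpus luteum markers had a median of 1.25 (4 of 5 higher). The size of the corpus luteum value leans on control 8. Per array, the median deviation of these markers was 1.41, 1.58, 1.65 and 0.18 on Ihh KO 1 to 4, against 0.01, 1.10, 0.56 and -2.61 on controls 5 to 8. Smooth muscle markers were lower in 8 of 8 (median -0.36; summed signal 9581 to 13653 in Ihh KO, against 11129 to 14996 in controls 5 to 8). Surface epithelium markers were higher in 10 of 11 (median 0.40), endothelial markers in 9 of 10 (0.32) and macrophage markers in 8 of 10 (0.28). No marker was called, and their part in the result was not tested.

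The single knockouts, which share controls 5 to 8, were also set against each other directly. No gene passed limma's test between Ihh KO and Dhh KO (0 of 12379, 0.0%), with 1440 genes (11.6%) at an unadjusted p under 0.05 and 4 of the 37 among them, all mitotic and lower in Ihh KO (5.34% of all genes in that direction). With single arrays left out in turn, 0 to 7 of the 37 reached an unadjusted p under 0.05. The mitotic genes had a median of -0.20 (18 of 20 negative) and the S phase genes of -0.00 (5 of 9 negative). With median centring, which moved the median of all genes to 0.13, 13 of 20 mitotic genes were negative. The mitotic median relative to all genes was -0.19, a value that such centring cannot alter. Without Ihh KO 3 the mitotic median was -0.04 with 14 of 20 negative, and without the array labelled Ihh KO 4 it was -0.26 with 20 of 20. Kif20a, a kinesin of the central spindle, had 891, 929, 673 and 963 in Ihh KO, against 1048, 1001, 1287 and 1069.7 in Dhh KO. These arrays did not overlap, as for 3.14% of all genes in that direction (-0.35 ± 0.16, adjusted p = 0.395). Nusap1 differed by -0.27 ± 0.12 (adjusted p = 0.394) and Cenpe by -0.44 ± 0.20 (adjusted p = 0.395). Without the array labelled Ihh KO 4, 26 of all genes were called (0.21%), none of the 37 among them. Mcm7 (-0.16 ± 0.10), Rrm1 (-0.10 ± 0.10), Ccne1 (0.27 ± 0.19), Ccnd1 (-0.16 ± 0.23), Cdkn1b (-0.40 ± 0.30) and E2f1 (0.05 ± 0.21) did not pass the test.

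Whether the mutants' changes differ from one another was tested as the difference of 2 changes, each against the controls of its own set. The DKO change was above the Ihh KO change for 19 of 20 mitotic genes (median 0.42) and 8 of 9 S phase genes (median 0.27), against a median of 0.05 over all genes. In limma 49 genes (0.396%) passed the test, none of the 37 among them. With median centring, which moved the median of all genes to -0.12, 17 of 20 mitotic and 6 of 9 S phase differences were positive. The mitotic median relative to all genes was 0.37, a value that such centring cannot alter. The smallest p-values were those of Bub1 (0.63 ± 0.18, adjusted p = 0.114), Nusap1 (0.49 ± 0.18, adjusted p = 0.174) and Plk1 (0.93 ± 0.36, adjusted p = 0.202) among mitotic genes. Ccne1 differed by 0.73 ± 0.28 (adjusted p = 0.194), Ccnd3 by -0.36 ± 0.15 (adjusted p = 0.230), Mcm3 by 0.42 ± 0.21 (adjusted p = 0.312), Rrm1 by 0.28 ± 0.15 (adjusted p = 0.339), E2f1 by 0.62 ± 0.31 (adjusted p = 0.300) and Cdkn1a by -0.61 ± 0.71 (adjusted p = 0.687). Without Ihh KO 3 the mitotic median was 0.31, and without the array labelled Ihh KO 4 it was 0.53. Without control 4 the number of genes called was 274 of 12379, and 1 of the 37 was called, Bub1, a share close to that of all genes. These fits treat the matched controls as separate arrays. With matched controls correlated in limma, 697 of the 12379 genes tested were called. Among them was 1 of the 37, a share below that of all genes: Bub1 (adjusted p = 0.0221 in limma).

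The DKO change was also above the Dhh KO change for 17 of 20 mitotic genes (median 0.24) and 8 of 9 S phase genes (median 0.21), and again none of the 37 was called, against 75 of all genes (0.606%). Without control 8 the mitotic median was 0.13, and without control 4 it was 0.32. Ccne1 came closest, with a difference of 1.00 ± 0.28 (adjusted p = 0.0894) in limma. With matched controls correlated 672 of the 12379 genes tested were called, with Ccne1 as the 1 gene of the 37 (adjusted p = 0.0243 in limma at the same difference). This share of the 37 was below that of all genes. Bub1 differed by 0.42 ± 0.18 (adjusted p = 0.266), Mcm4 by 0.53 ± 0.25 (adjusted p = 0.299), Mcm2 by 0.44 ± 0.23 (adjusted p = 0.366), Aurkb by 0.54 ± 0.26 (adjusted p = 0.313), Aurka, the kinase of the spindle poles, by 0.45 ± 0.28 (adjusted p = 0.446), E2f1 by 0.68 ± 0.31 (adjusted p = 0.284), Ccnd3 by -0.37 ± 0.15 (adjusted p = 0.229) and Cdkn1b by -0.63 ± 0.45 (adjusted p = 0.518). Of the 114 further cell cycle genes 1 was called. Nek2, a kinase of the centrosome, had 449, 504 and 479 in DKO, against 323, 341, 349 and 450.3 in controls 1 to 4, and 317, 274, 335 and 261 in Dhh KO, against 385, 516, 447 and 475 in controls 5 to 8. Of its 4 DKO controls 1 overlapped and the Dhh KO arrays all lay below their controls, with a difference of changes of 1.00 ± 0.20 (adjusted p = 0.0276) in limma. The call was lost with the mean of its probe sets (0.39, adjusted p = 0.351) and with median centring (0.96, adjusted p = 0.152). It was also lost without control 1, 2, 3, 6 or 7, Dhh KO 2 or 4, or DKO 2 or 3, at differences of 0.93 to 1.00 (adjusted p = 0.0517 to 0.0731). With the number shared by DKO and Dhh KO arrays and the matched controls as a block, 716 of the 12379 genes tested were called. Among them was 1 of the 37, a share below that of all genes: Cdkn1b (-0.81, adjusted p = 0.0352 in limma).

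**Figure D5:**
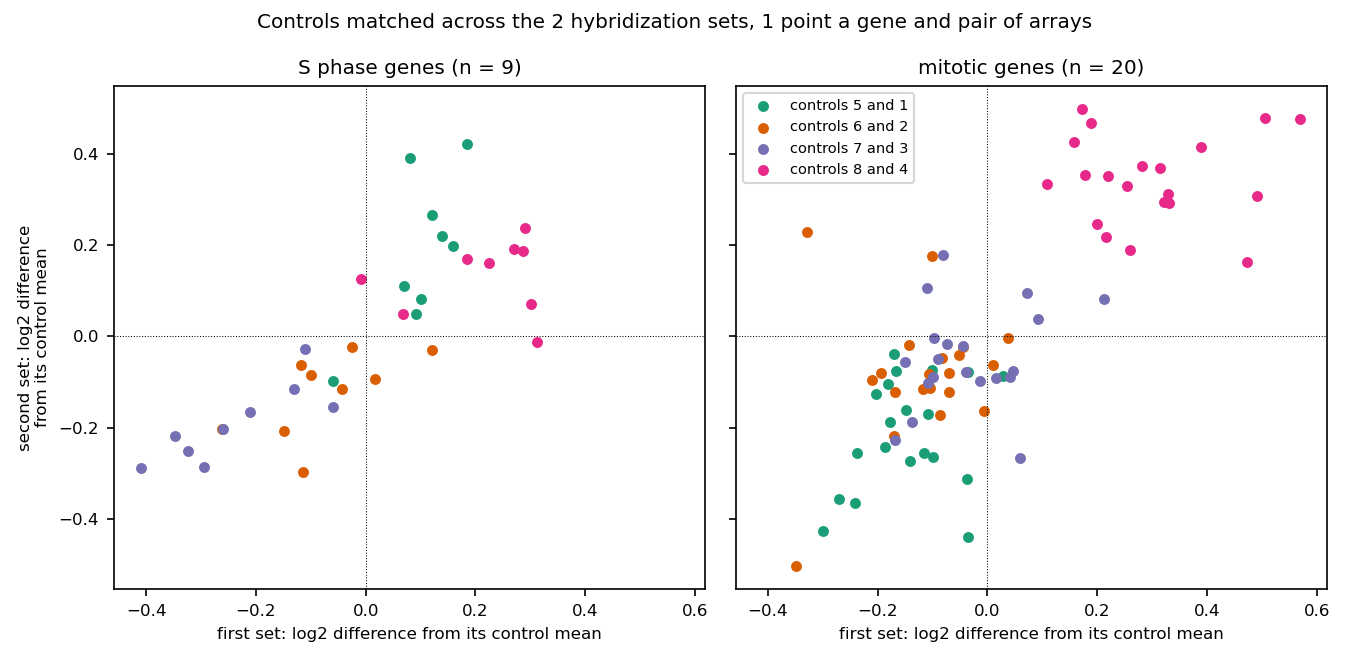
Log2 difference of each S phase gene (left) and mitotic gene (right) from the control mean on each control of the second set (vertical axis) and on the matched control of the first set (horizontal axis); 1 point is a gene in a pair of arrays and colours are the pairs. Most mitotic genes of controls 8 and 4 lie above 0 on both axes.

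The control arrays differed among themselves in cell division genes, and the matched arrays of both sets stood out alike. Of the 20 mitotic genes 18 had their highest control signal on control 8 in the second set and on control 4 in the first. The S phase genes were highest on controls 5 and 8 in the second set (median deviations 0.20 and 0.16) and on controls 1 and 4 in the first (0.10 and 0.27). The inhibitors ran the other way. Cdkn1b was 4548, 6603, 5570.3 and 2806 on controls 5 to 8 and 5568, 8891, 6628 and 3319.8 on controls 1 to 4, and Cdkn1a 323, 759.6, 379 and 190.5 and 334, 723, 436 and 177. Both were lowest on controls 8 and 4 and highest on controls 6 and 2. Controls 8 and 4 also had the lowest corpus luteum markers (median deviations -2.61 and -3.40) and the highest oocyte markers (0.51 and 0.40) of the controls in their sets. The part of these markers in the spread of the cell division genes was not tested. Between the sets, with the 4 matched pairs compared directly, 22 of the 37 genes differed in limma at an adjusted p under 0.05, 10 higher and 12 lower in controls 5 to 8, against 53.1% of all genes.

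For 28 of the 37 genes 46 further probe sets passed the filter. Of these 46, the change had the sign of the tested probe set in 42 for DKO, 38 for Dhh KO, 41 for Ihh KO and 28 for Ihh KO against Dhh KO. Bub1 had a second probe set at 0.44 in DKO, -0.22 in Dhh KO and -0.35 in Ihh KO on the log2 scale. The second probe set of Cdkn1a gave 0.56 in Ihh KO, close to the tested one. Bub1b, a checkpoint kinase and the mitotic gene with a positive change in Ihh KO (0.12), had further probe sets at -0.36 and 0.01 there. The second probe set of Ccne1 was at -0.69 in Ihh KO and -0.33 in Dhh KO.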

How the data were processed

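RNA of whole ovaries was amplified and labelled with biotin per the labels' protocols. Each deposited value is a linear intensity of a probe set, made by MAS5 according to the submitters' processing notes, whose version is not given in the sources used here. Array means, without the top and bottom 2% of probe sets, were all 500.002. Probe sets were named from the platform's annotation. Signals were used as log2(signal + 7.02), the pseudocount being the 10th percentile, so changes of low genes are understated. Probe sets under the 40th percentile of mean log2 signal (6.26, a signal of 69.4) were left out.

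Differences were tested two-sided in R 4.3.3 with limma 3.58.1 (lmFit, eBayes with trend) in 1 model of 5 group means over all arrays, with the controls of each set apart and Benjamini-Hochberg adjustment over 12379 genes. The fit was tested on simulated data. Summaries and figures came from pandas 2.3.3, numpy 2.4.6 and matplotlib 3.10.9 (Python 3.11.15). The members, lists and tests were chosen with earlier results of these data known. Named are called genes, in each comparison the 3 mitotic genes, 2 S phase genes, 2 G1 cyclins, 1 inhibitor and 1 transcription factor with the smallest p, and Mki67, Pcna, Top2a and Ccnd2. Other members are named after their values were seen.

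Numbers shared in the labels were checked as pairs. Across genes, equally numbered DKO and Dhh KO samples had correlated deviations (0.204, 0.133 and 0.177), and this pairing comes from the values alone. For DKO and controls they were 0.158, 0.274 and 0.0743, for Dhh KO and controls 1 to 4 0.289, 0.0976, 0.430 and 0.216, and for Ihh KO and Dhh KO -0.0739, 0.156, -0.298 and 0.0628. Pairs were accepted where every value was over 0.1, so pairs with controls and of Ihh KO with Dhh KO were not. The fits with a replicate block still placed arrays of such pairs in 1 block. Alternatives were other normalizations, pseudocounts, filters, probe set rules, moderation and weights, pooled or correlated controls, the replicate number as a block, and each array left out in turn.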

Additional observations from a re-analysis of the deposited data

Results flagged for a closer look

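In 14 of 156 groups of 4 arrays, 1 array lay far from the other 3, where chance gives about 1 in 20. Of these, 5 were control 4 as the highest of controls 1 to 4: Rrm1 (3159.6), Top2a (2465), Ccna2 (2600.2), Cdc20, the activator of the anaphase-promoting complex (1964), and Cenpe (597). Another 5 were control 8 as the highest of controls 5 to 8: Cdk1, the kinase of mitosis (1808), Birc5, a subunit of the chromosomal passenger complex (2330.3), Prc1 (1619), Nusap1 (1512) and Ube2c, a ubiquitin-conjugating enzyme of mitotic exit (4172). These genes share arrays and so are not separate observations. Controls 4 and 8 also deviated alike across genes (r = 0.771), so the groups on them are not separate from each other. The 14 are therefore not separate counts to set against 1 in 20.

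On Ihh KO 3, Cdk1 was far below the other Ihh KO arrays (858) and Mcm4 far above them (3553). Rrm2, a subunit of ribonucleotide reductase, was low on Dhh KO 4 (2226) and Plk1 high on Dhh KO 3 (451). The change of Nek2 differed between DKO and Dhh KO by 0.995 on the log2 scale (adjusted p = 0.0276 in limma), with a call in 22 of 33 alternative settings. Fits without 1 Ihh KO array are among the 33 and leave this difference unaltered.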

How the results depend on the processing

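The number of arrays limits these results, and counts of called genes moved most. Leaving out each array in turn gave 128 to 503 called genes in DKO against control, 0 to 7 in Dhh KO, 0 to 58 in Ihh KO and 0 to 26 between Ihh KO and Dhh KO. It gave 0 to 274 for the DKO minus the Ihh KO change, with 0 to 1 of the 37 genes, and 23 to 304 for the DKO minus the Dhh KO change. The lowest DKO count came without DKO 3 and the highest without control 4. The change of Cdkn1b in Dhh KO ran from -0.10 to 0.31 and that of E2f1 between Ihh KO and Dhh KO from -0.16 to 0.24. Causes of the shifts given here were not tested.

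Quantile normalization gave 4 genes between Ihh KO and Dhh KO, 21 for the DKO minus Ihh KO and 39 for the DKO minus Dhh KO change. Median centring gave 225 genes in DKO with 0 of the 37, 1 in Ihh KO and 27 for the DKO minus Dhh KO change, and turned Rrm1 between Ihh KO and Dhh KO to 0.0366. It split the calls into 90 higher and 135 lower in DKO, against 194 and 180 as reported, into 11 and 27 for the DKO minus Ihh KO change, against 30 and 19, and into 12 and 15 for the DKO minus Dhh KO change, against 44 and 31. A pseudocount at the 25th percentile gave 1 gene in Dhh KO and 1 between Ihh KO and Dhh KO, no pseudocount 0 in Ihh KO, no filter 7 in Ihh KO and no intensity trend 1 in Ihh KO. A filter at the 60th percentile gave 246 in DKO, 0 in Ihh KO, 25 for the DKO minus Ihh KO and 42 for the DKO minus Dhh KO change, with fewer genes tested. The mean of probe sets gave 0 of the 37 in DKO, 1 gene in Dhh KO and 80 for the DKO minus Ihh KO change, with Ccne1 between Ihh KO and Dhh KO at -0.0433. Array weights gave 700 in DKO, 7 in Dhh KO (Cdkn1b at -0.0265), 66 in Ihh KO, 2 between Ihh KO and Dhh KO, 220 for the DKO minus Ihh KO and 406 for the DKO minus Dhh KO change.

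Pooling all 8 controls, which does not keep the sets apart, gave 594 genes in DKO (Mcm4 at -0.21) and 19 in Dhh KO (Mcm4 at 0.0011, Cdkn1b at -0.00675). It gave 2562 of the 12379 genes tested, with 15 of the 37, for the DKO minus Ihh KO change. For the DKO minus Dhh KO change it gave 3220, with 12 of the 37 (Mcm4 at -0.21). Fits within 1 set gave 79 genes in DKO with 0 of the 37, and 0 in Ihh KO. Without the array labelled Ihh KO 4 such fits gave 1 in Dhh KO, 19 in Ihh KO and 10 between Ihh KO and Dhh KO. With matched controls correlated, 0 were called in Ihh KO, 697 with 1 of the 37 for the DKO minus Ihh KO change and 672 with 1 for the DKO minus Dhh KO change. Both shares of the 37 were below those of all genes.

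The replicate block over all 8 controls also mixes the sets. It gave 3689 of the 12379 genes tested, with 13 of the 37, in Dhh KO (Mcm4 at 0.37, Ccna2 at 0.10, Cdkn1b at -0.16). In Ihh KO it gave 3345, with 15 of the 37. It gave 4041 with 17 for the DKO minus Ihh KO change (mitotic median 0.66) and 4332 with 15 for the DKO minus Dhh KO change (mitotic median 0.47, Mcm4 at -0.23). The replicate block within a set could be fitted for DKO against control, where Cdkn1b was also called, and for Ihh KO against Dhh KO. The replicate block of DKO, Dhh KO and matched controls, added after seeing the data, as were the fits within a set without the array labelled Ihh KO 4, gave 1253 with 4 of the 37 in DKO, 1 in Dhh KO and 716 with 1 of the 37 for the DKO minus Dhh KO change. Fits within a set give no difference of changes.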

Other observations

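Genes of the same role differed in both directions between the 2 sets of controls. Mcm4 averaged 3570.3 in controls 5 to 8 and 2142 in controls 1 to 4 (log2 difference 0.74), and the spindle motor Kif11 1670.2 and 1075 (0.63). Cenpa, the histone of centromeres, averaged 491 and 822 (-0.74), and the checkpoint kinase Bub1b 647 and 1014 (-0.67). Of the 20 mitotic genes 13 passed the test between the sets in limma, 5 higher and 8 lower in controls 5 to 8, against 53.1% of all genes.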
